A study of Homo sapiens with 4 samples.

Results

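Exonic peaks away from start sites are stretches of acetylated chromatin that lie over the exons of protein-coding genes but not at a promoter. They were taken from H3K27ac ChIP-seq peak lists of Hs578T and MDA-MB-231, both of which are established human lines of triple-negative breast cancer with mesenchymal features. A peak was a member if it lay on chromosomes 1 to 22 or X, over 2.5 kb from the start site of every basic transcript in GENCODE, with its midpoint in an exon of a protein-coding gene. The rule used position only and no measured strength. Under the label MDA-MB-231 replicate 2 it gave 823 of 43353 peaks, with 939 of 46330 in Hs578T replicate 1 and 951 of 44920 in Hs578T replicate 2, or 904 ± 70.7 (SD, n = 3 lists). Merged where they overlapped, these peaks formed 1499 regions, with 1344 host genes when counted by region. Counted by peak, 1353 genes were hosts in at least 1 list.

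To place these peaks in the study, all 4 libraries came from cells of wild-type lines that were starved for 8 h, stimulated for 48 h with 10 ng/ml of TWEAK, the ligand of the receptor Fn14, and then left without it for 72 h according to the labels. The study's text describes a longer interval, and which of these applies was not settled here. No library from untreated cells, or from cells that still had the cytokine, was analysed here, and its effect was therefore not measured. Each line was represented by 2 libraries, which the study's methods describe in general terms as biological replicates. With 209 peaks, against 43353 to 46330 in the other lists, MDA-MB-231 replicate 1 was left out by the rule.

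Before any result, the labels were set against the lists. Of all peaks labelled MDA-MB-231 replicate 2, 94.2% overlapped a peak of Hs578T replicate 1 and 91.2% a peak of Hs578T replicate 2. Hs578T replicate 1 shared 88.8% of its peaks with the other Hs578T list and 86.4% with MDA-MB-231 replicate 2, and the same shares for Hs578T replicate 2 were 93.4 and 87.9%. For exonic peaks the corresponding shares were 81.6 and 75.6%, and 86.2 and 77.2%. Each Hs578T list thus overlapped the other Hs578T list more often, while the list of the other line overlapped both of them at similar rates. The promoters of the mesenchymal genes VIM, CD44 and AXL carried a peak in each of the 3 lists, while those of the luminal and epithelial genes ESR1, GATA3, FOXA1 and ESRP1 carried none. These markers do not tell the lines apart. Lists are therefore named by their labels, and no difference between lines was tested, since 1 list against 2 cannot give an exact permutation p below 0.333. Sequencing depth is unknown, and a peak missing from a list may have fallen below the calling threshold there.

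H3K27ac is a histone mark laid down by the acetyltransferases p300 and CBP at active promoters and enhancers, and it is lost as these elements fall silent. Enhancers are mostly found in introns and between genes, but exonic sequence can also act as an enhancer, with bases that serve both the protein code and factor binding. The last exon of a gene usually holds the end of the coding sequence and the 3′ untranslated region, and it is commonly much longer than the internal exons, which are almost wholly coding.

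Some of the coding sequence under these peaks is shown because it carries the AP-1 motif, the site of FOS and JUN family dimers, within codons. The midpoint fell in the coding part of an internal exon in all 3 lists at 45 regions. 44 of these were searched, and 11 held TGACTCA or its reverse complement TGAGTCA in coding bases of the central 500 bp. The 5 strongest are printed on the coding strand, 5′ to 3′, with up to 60 bases on each side that are still coding, and every match in capitals. The coordinates are those of hg38.
CRYBG1, exon 4 of 22, plus strand, chr6:106519728-106519854: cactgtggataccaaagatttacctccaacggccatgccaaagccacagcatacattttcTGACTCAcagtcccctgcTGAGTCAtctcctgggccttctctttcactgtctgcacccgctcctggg
SYTL2, exon 8 of 20, minus strand, chr11:85726040-85726166: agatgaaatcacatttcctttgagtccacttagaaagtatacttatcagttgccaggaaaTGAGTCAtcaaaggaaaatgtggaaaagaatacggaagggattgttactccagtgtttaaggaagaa
ANK2, exon 38 of 46, plus strand, chr4:113355836-113355962: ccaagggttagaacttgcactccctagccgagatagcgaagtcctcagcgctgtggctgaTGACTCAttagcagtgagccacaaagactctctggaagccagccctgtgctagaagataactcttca
LSMEM1, exon 2 of 4, plus strand, chr7:112484817-112484884: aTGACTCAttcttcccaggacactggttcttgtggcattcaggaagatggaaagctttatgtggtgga
AKAP10, exon 4 of 15, minus strand, chr17:19958175-19958301: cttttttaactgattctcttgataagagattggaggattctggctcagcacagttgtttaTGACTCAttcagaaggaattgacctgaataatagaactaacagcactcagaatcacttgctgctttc

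These exons differed in size. CRYBG1 encodes an actin-associated crystallin-fold protein, and its exon contributed 2323 coding bases. The peak over it had a fold enrichment (the authors' ratio of ChIP signal over local background, averaged over the peak) of 15.0 in MDA-MB-231 replicate 2, 12.2 in Hs578T replicate 1 and 10.2 in Hs578T replicate 2. SYTL2, a synaptotagmin-like protein of vesicle transport, was covered at 8.63, 10.4 and 9.43, and ANK2, the membrane adaptor ankyrin-B, at 8.41, 10.5 and 8.41. In the latter pair of genes the exons were 3936 and 6255 coding bases long, and every base of the peak was exonic in the 3 lists. LSMEM1 stood at the other end. The coding part of its exon was 127 bases long, the motif began at the second base of that part, and only 8.52 to 9.38% of the peak was exonic. AKAP10, an anchoring protein of protein kinase A, lay between them with 18.2 to 21.0% exonic bases and fold enrichments of 7.93, 7.55 and 7.47.

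The first question was how often distal peaks, those over 2.5 kb from every start site, fell in exons. Exonic peaks made up 3.03% of 27150 distal peaks in MDA-MB-231 replicate 2 (95% Wilson interval 2.83 to 3.24%), 3.17% of 29655 in Hs578T replicate 1 (2.97 to 3.37%) and 3.31% of 28747 in Hs578T replicate 2 (3.11 to 3.52%). These intervals, like all others given here, cover counting error only. Protein-coding exons made up 2.26% of the bases that lie over 2.5 kb from start sites, so the exonic share of peaks was 1.34, 1.40 and 1.46 times the share of bases. Introns of the same genes were over-represented to a similar degree, with 49.8 to 50.3% of distal peaks on 39.3% of the bases. Within the bodies of protein-coding genes, exons held 5.74, 5.93 and 6.18% of the distal peaks on 5.44% of the bases. Intergenic bases held 33.7 to 34.3% of the distal peaks on 43.2% of the bases.

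The exon share at the peaks was close to that beside them. At the midpoint of distal peaks it was 3.03, 3.17 and 3.31% in the order of the lists above. At points 5 kb to either side it was 3.01, 3.07 and 3.16%, and at 10 kb 2.99, 2.97 and 2.98%. The midpoint was above the points at 5 and 10 kb in 3 of 3 lists, at 10 kb by 0.0454, 0.193 and 0.330 percentage points. The value at 10 kb lay within the counting interval of the midpoint in the first list and below it in Hs578T replicate 2. In Hs578T replicate 1 it lay at the edge of that interval, at 2.9738% against a lower limit of 2.9731%. At 1 kb the share was 3.17, 3.27 and 3.29%, above the midpoint in 2 of 3 lists.

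**Figure D1:**
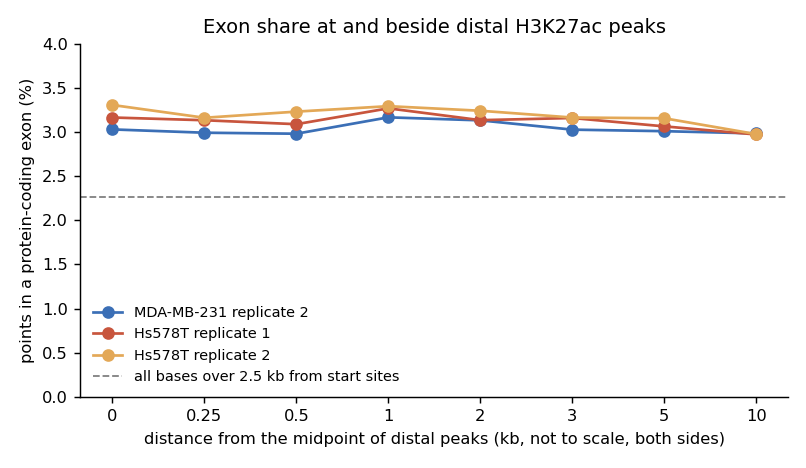
Percentage of points that lie in a protein-coding exon (vertical axis) at the midpoint of distal peaks and at 0.25 to 10 kb on both sides of it (horizontal axis, categories not to scale), per list, with the exon share of all bases over 2.5 kb from start sites as a dashed line. The 3 lists run between 2.97 and 3.31% at all distances, above the dashed line at 2.26%.

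Exonic peaks were next divided by where in the gene they fell. Last exons held 570 of 823 exonic peaks (69.3%) in MDA-MB-231 replicate 2, 663 of 939 (70.6%) in Hs578T replicate 1 and 650 of 951 (68.3%) in Hs578T replicate 2, or 69.4% ± 1.14 (SD, n = 3 lists). Internal exons held 251, 274 and 297, and genes of a single exon 2, 2 and 4. No midpoint lay in a first exon, of which few bases are over 2.5 kb from a start site. By coding state, the midpoint was in the 3′ untranslated part of the last exon in 504, 590 and 581 peaks, in the coding part of an internal exon in 239, 258 and 285, and in the coding part of the last exon in 66, 73 and 69. The 5′ untranslated region held 11, 13 and 9.

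Much of this division follows the number of bases on offer. In Ensembl canonical transcripts, last exons held 60.7% of the exon bases over 2.5 kb from start sites, while 67.7, 69.2 and 66.3% of the exonic peaks assigned to such a transcript lay in them. Per Mb of these bases, last exons held 15.0, 17.4 and 17.0 exonic peaks and internal exons 11.2, 12.1 and 13.4. The difference had the same sign in 3 of 3 lists, and an exact sign-flip test over 3 lists cannot give a p below 0.25. The 3′ untranslated part of last exons held 15.4, 17.8 and 17.5 per Mb and their coding part 13.0, 15.2 and 14.3 per Mb. Along the last exon, from its 5′ to its 3′ end, successive 25% stretches held 24.1, 22.1, 26.2 and 27.6% of the peaks in MDA-MB-231 replicate 2, on 24.8 to 25.2% of the bases each. Hs578T replicate 1 had 24.7, 22.1, 25.9 and 27.3%, and Hs578T replicate 2 had 23.7, 23.7, 26.7 and 25.8%. Thus the peaks were spread along the whole exon, with each stretch of the 3′ 50% above each stretch of the 5′ 50% in every list.

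**Figure D2:**
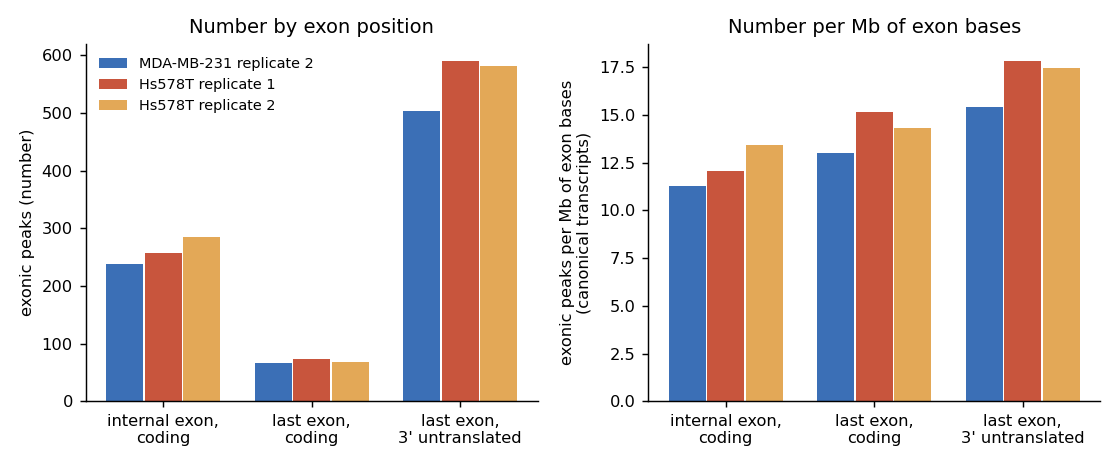
Exonic peaks away from start sites by exon position and coding state, as numbers per list (left) and per Mb of canonical exon bases over 2.5 kb from start sites (right). Of the 3 categories drawn, the 3′ untranslated part of last exons has the highest bars in both panels, with 504 to 590 peaks and 15.4 to 17.8 per Mb, and internal coding exons have 11.3 to 13.4 per Mb.

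Exonic peaks were of ordinary width for a distal peak. Their median width was 1160 bp in MDA-MB-231 replicate 2, 1205 bp in Hs578T replicate 1 and 1153 bp in Hs578T replicate 2, against 1246, 1253 and 1213 bp for intronic and 1172, 1186 and 1169 bp for intergenic peaks. The quartiles were 672.5 and 1964.5 bp, 702.5 and 2052.5 bp, and 627 and 2007 bp. The widest member spanned 19752, 20655 and 15032 bp. The median distance to the closest start site was 11257, 10901 and 12040 bp. Close to the limit of the rule, 40, 47 and 49 members lay 2.5 to 3 kb from a start site, the nearest at 2503 bp, and 39, 41 and 43 exonic peaks at 2 to 2.5 kb were left out.

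How much of a peak was exon depended on the exon. For internal exons, with a median length of 163, 152.5 and 157 bp in the 3 lists, a median of 22.4, 17.8 and 19.3% of the peak was exonic. The peak ran past both ends of the exon in 86.9, 90.1 and 87.2% of cases. For last exons, with a median length of 3289, 3100 and 3176 bp, the median peak was 100% exonic. It lay wholly within that exon in 52.3, 50.4 and 53.4% of cases. Over all members, 72.1, 71.4 and 71.9% had at least 50% exonic bases. Exons in general had similar lengths when weighted by their bases, with a median of 161 bp for internal and 3632 bp for last exons.

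**Figure D3:**
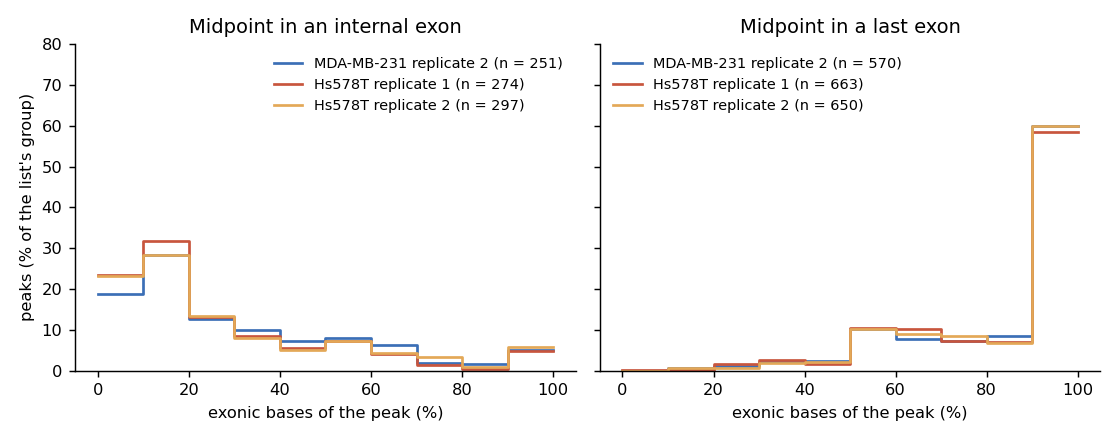
Share of a peak's bases that are exonic (horizontal axis, bins of 10%) for members in internal exons (left) and last exons (right), as a percentage of the group in each list. Most peaks over internal exons are less than 25% exonic (55.0 to 62.0% of them), whereas over last exons only 1.08 to 1.51% are.

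Strength was read as the percentile of a peak's fold enrichment among all peaks of its own list, since fold enrichment is relative to each library's background and its size was not compared between lists. Exonic peaks had a median percentile of 33.3 in MDA-MB-231 replicate 2, 32.3 in Hs578T replicate 1 and 32.9 in Hs578T replicate 2. Intronic peaks stood at 38.6, 38.7 and 39.7 and intergenic peaks at 42.7, 44.5 and 45.7. Exonic peaks were thus lower by 5.27, 6.39 and 6.76 percentile points than intronic ones in 3 of 3 lists, and by more than the spread of 0.497 (SD) of their own median over lists. The smallest two-sided p that the exact sign-flip test allows is again 0.25. In the strongest 10% of a list lay 38, 50 and 54 exonic peaks (4.62, 5.32 and 5.68% of them), and in the weakest 10% lay 134, 158 and 178 (16.3, 16.8 and 18.7%). Members in internal and last exons had median percentiles of 31.3 and 34.2 in MDA-MB-231 replicate 2, 35.7 and 31.1 in Hs578T replicate 1, and 32.7 and 33.1 in Hs578T replicate 2, with no common direction.

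The regions ranked next are those that were members in all 3 lists, and single lists held other exonic peaks of similar strength. At BTD, which encodes the biotin-recycling enzyme biotinidase, a peak of 5601 to 6478 bp lay over the 3′ untranslated part of the last exon (chr3:15643357-15649980). Its fold enrichment of 44.5, 49.3 and 43.7 was the highest of any member in each list. LRRC2, a leucine-rich repeat protein, followed with 38.9, 38.1 and 33.4 (chr3:46514513-46518991). SUFU, an inhibitor of Hedgehog signalling, reached 27.2, 29.7 and 23.9 over 8499 to 9035 bp, of which 39.2 to 41.6% was exonic. FAM120B, a coactivator of PPARG, reached 25.2, 28.2 and 22.4, and ATOX1, a copper chaperone, 23.2, 28.4 and 22.3. These 5 regions were at or above percentile 97.3 in all lists, and the same 5 ranked first among shared regions with a 3′ untranslated midpoint.

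Among internal coding exons that were members in all 3 lists, MYLK, the myosin light chain kinase, led with 31.6, 27.4 and 20.9 at exon 10 of 34 (chr3:123731802-123735888). The peak there was 3762 to 4087 bp wide and 18.6 to 20.3% exonic. TEAD3, a DNA-binding effector of the Hippo pathway, followed at exon 2 of 13 with 23.5, 22.2 and 16.1 (chr6:35484190-35488911), and CRYBG1 ranked next. SPAG1, an assembly factor of ciliary dynein, had 16.5, 13.3 and 8.45 at exon 11 of 19. ZNF341, a zinc finger regulator of STAT3, had 10.0, 14.3 and 11.3 at exon 14 of 15. With the exception of CRYBG1, at most 29.2% of these peaks was exonic.

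A stricter class lay wholly inside 1 exon in all 3 lists. There were 168 such regions, of which 164 were in a last exon, 4 in an internal exon and 10 had a coding midpoint. The strongest was in the last exon of the kinase LRRK1 (chr15:101069083-101071879), with a fold enrichment of 18.1, 23.2 and 20.1. SH3TC2, an endosomal protein of Schwann cells, followed with 16.5, 26.8 and 22.2, and OLFML2A, an olfactomedin-like extracellular protein, with 20.0, 21.2 and 17.1. ATF6, a transcription factor of the endoplasmic reticulum stress response, had 15.6, 17.7 and 16.3. LPP, a LIM protein of focal adhesions, had 15.9, 13.9 and 13.4 in a last exon of 16321 bp.

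The widest members that were shared by the 3 lists were those of ATOX1, at 9295, 9987 and 9382 bp, and the second SH3TC2 region, at 9407, 8303 and 9666 bp. SUFU came next. PPP1R12B, a regulatory subunit of myosin phosphatase, had 8936, 9798 and 5062 bp, all exonic, with the midpoint in a last exon of 12229 bp. Only the peak of 5062 bp lay wholly within that exon. MUSK, the receptor tyrosine kinase of the neuromuscular junction, had 7620, 7444 and 7675 bp, and its midpoint was coding.

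Few genes held more than 1 exonic peak, namely 43 of 770 host genes in MDA-MB-231 replicate 2, 52 of 880 in Hs578T replicate 1 and 52 of 894 in Hs578T replicate 2. Genes with 3 regions in all lists were CNKSR3, a scaffold of sodium channel regulation, and DMBT1, a scavenger receptor glycoprotein. The CNKSR3 regions were spread over a single last exon of 19138 bp. Their fold enrichments were 5.45, 5.94 and 5.86 for the first along the chromosome, 7.31, 7.35 and 6.71 for the next, and 7.43, 10.1 and 9.81 for the last. In DMBT1 the peaks sat on exons 13, 23 and 32 of 56, each of 324 bp, with 12.0, 8.17 and 8.18 at exon 13, 11.4, 9.96 and 9.14 at exon 23, and 5.34, 4.48 and 4.18 at exon 32. DMBT1 held 6, 4 and 3 exonic peaks in all. Its exons are near-identical repeats, so the placing of reads among them is uncertain.

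Genes with 2 regions in all lists included SH3TC2, whose last exon of 22753 bp held both, and RBMS2, an RNA-binding protein, with 1 in internal exon 7 of 14 and 1 in the last exon. ANK2 held the region in exon 38 shown above and another in its last exon, where fold enrichment was 3.02, 3.22 and 2.83. ZFHX3, a homeobox factor, had 8.62, 8.50 and 7.05 at the stronger of its regions and 3.03, 3.04 and 3.54 at the other. CDYL2, a chromodomain protein, had 5.63, 9.21 and 8.57 against 3.06, 4.26 and 4.02. NUDCD3, SYT15B and HS1BP3 complete the 10. SYT15B lies in duplicated sequence with a close copy, so its peaks are likewise uncertain.

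Replication was taken as overlap of at least 1 bp with any peak of both other large lists. This held for 693 of 823 exonic peaks in MDA-MB-231 replicate 2, or 84.2% (81.6 to 86.5%). It held for 672 of 939 in Hs578T replicate 1, or 71.6% (68.6 to 74.4%), and for 713 of 951 in Hs578T replicate 2, or 75.0% (72.1 to 77.6%). Over all distal peaks, the exonic ones included, the percentages were 87.7, 78.1 and 82.3%. Exonic peaks were below this background in 3 of 3 lists, by 3.50, 6.58 and 7.32 percentage points. No counterpart at all was found for 59, 135 and 110 of them, or 7.17, 14.4 and 11.6%. Over all distal peaks this share was 5.49, 9.38 and 7.05%.

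Strength moved with this share. Among exonic peaks in the weakest 25% of a list by fold enrichment, 66.1, 37.9 and 42.2% overlapped both other lists, against 91.5, 89.7 and 92.2% between the percentiles 25 and 50. Above the median of the list, 99.5 to 100% did. The weakest 25% of a list held 39.7, 41.9 and 39.6% of the exonic peaks and 34.1, 34.0 and 33.2% of the intronic peaks. Over all strengths, exonic peaks were below intronic ones by 3.27, 5.05 and 5.97 percentage points. Within the weakest 25% they were lower by 0.937, 1.64 and 7.45 percentage points, and between the percentiles 25 and 50 intronic minus exonic was 4.05, 0.178 and -0.570. Within the weakest 25% the gap therefore had the same sign in the 3 lists but not the same size. Between the percentiles 25 and 50 its sign differed between lists.

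**Figure D4:**
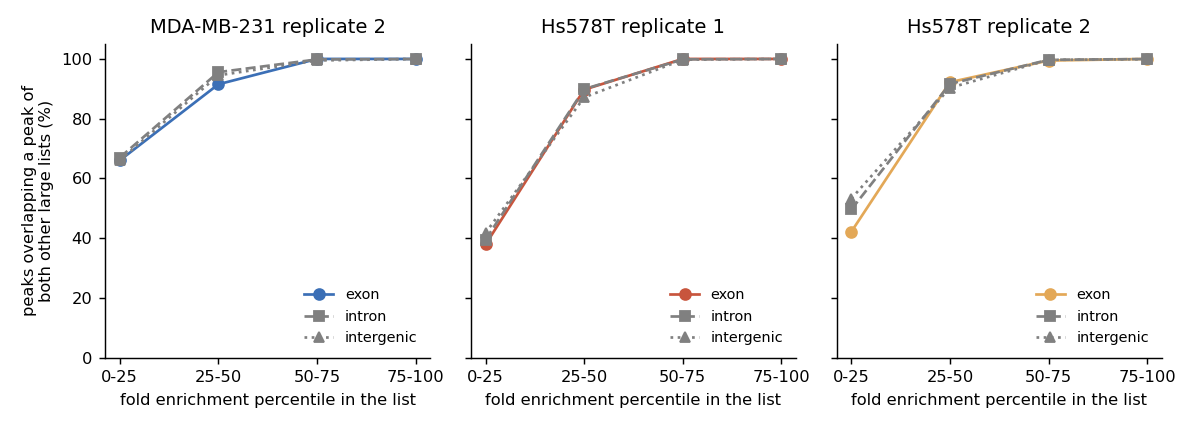
Percentage of distal peaks that overlap a peak of both other large lists (vertical axis) by percentile of fold enrichment within the list in steps of 25 (horizontal axis), for exonic, intronic and intergenic peaks, 1 panel per list. Exonic peaks rise from 66.1, 37.9 and 42.2% in the weakest 25% to 100% in the strongest, and the widest gap to the intronic peaks, 7.45 percentage points, is in the weakest 25% of Hs578T replicate 2.

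A shared peak was not always exonic in the other list. Taking both other lists together, the counterpart of an exonic peak of MDA-MB-231 replicate 2 was itself an exonic peak away from start sites in 64.0% of 1646 comparisons. It had its midpoint in an intron in 18.0%, reached within 2.5 kb of a start site in 3.65%, and was missing in 11.5%. For Hs578T replicates 1 and 2 the exonic counterparts were 59.3 and 59.0%, the intronic ones 16.0 and 17.9%, and the missing ones 21.4 and 18.3%. Of the exonic peaks of MDA-MB-231 replicate 2, 89.9 and 87.1% overlapped a peak of Hs578T replicates 1 and 2. Over all peaks of that list the shares were 94.2 and 91.2%. The same shares for the Hs578T lists are given above. The midpoints of overlapping peaks differed by a median of 127, 124 and 129.5 bp, set against the median internal exon of 152.5 to 163 bp given above. Of the 1499 merged regions, 443 (29.6%) were members in all 3 lists, 391 of them in a last exon and 51 in an internal exon. Another 355 were members in 1 list only although a peak lay there in all 3.

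Single loci show how the border of a peak decided membership. The last exon of ACTN4, an actinin of the cytoskeleton, carried a member of 9790 bp in MDA-MB-231 replicate 2, whereas the overlapping peaks of the Hs578T lists were 88811 and 88507 bp wide and ran over a start site. Exon 15 of MYH9, a non-muscle myosin heavy chain, carried a member of 394 bp in Hs578T replicate 2, where the overlapping peak of Hs578T replicate 1 was 67788 bp wide. At LTBP1, a carrier of latent TGF-β, a strong peak was present in all lists (17.8, 21.7 and 17.6), but its midpoint lay in an exon in 1 of them.

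Regions with a peak under 1 label only were weak. Both Hs578T lists had an exonic peak, and MDA-MB-231 replicate 2 no peak of any kind, in 71 regions, with a median percentile of 12.9 and a highest mean percentile of 33.2. The 5 strongest were in RGS20, UEVLD, DIO1, TMEM18 and TACR1, with fold enrichments of 3.21 to 3.84. Conversely, 59 regions had an exonic peak in MDA-MB-231 replicate 2 and no peak of any kind in either Hs578T list, with a median percentile of 11.9 and a highest of 35.1. The strongest of these lay in a gene without symbol (ENSG00000268173), WWC3, KIF6, CROCC and DENND2A, with fold enrichments of 3.88 to 4.32. CROCC has near-identical copies, so its peak is uncertain. Hs578T replicate 1 alone had 135 such regions and Hs578T replicate 2 alone had 110, each more than the 71 that the pair shared. Peaks called in a single list were also found over all distal peaks. There they made 5.49% in MDA-MB-231 replicate 2, 9.38% in Hs578T replicate 1 and 7.05% in Hs578T replicate 2. Of the exonic peaks they made 7.17, 14.4 and 11.6%, as given above. For the Hs578T pair the share over all distal peaks was not counted. The strength of all distal peaks found under 1 label only was not measured either. The count of 71 and the low percentiles therefore cannot be called particular to exonic peaks. Regions that were members in all 3 lists had a median percentile of 45.4.

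The host genes were then examined for H3K27ac at their own start. A gene counted as marked if a peak lay within 1 kb of the start site of its canonical transcript, which held for 58.1, 58.2 and 56.4% of 19970 protein-coding genes in the order of the lists above. Of these genes, 3.86, 4.41 and 4.48% hosted an exonic peak. Among the hosts, 608 of 770 (79.0%, 75.9 to 81.7%), 703 of 880 (79.9%, 77.1 to 82.4%) and 691 of 894 (77.3%, 74.4 to 79.9%) were marked. Hosts of last-exon peaks were marked in 79.9, 80.2 and 77.8% of cases and hosts of internal peaks in 76.7, 78.8 and 76.0%. Genes with an intronic distal peak were marked in 74.7, 75.7 and 73.8%. The median host was 55.2, 53.7 and 57.6 kb long, against 27.5 kb for all protein-coding genes, and carried 4.15, 3.98 and 4.11 kb of exon over 2.5 kb from start sites, against 2.04 kb. The part of gene length in the share of marked hosts was not tested.

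Hosts often had further distal peaks. An intronic peak lay in 52.2, 54.7 and 53.8% of them, against 25.3, 26.9 and 26.4% of all protein-coding genes. Hosts were the longer genes, as given above, and the part of gene length in this share was not tested either. Exonic peaks sat late in their gene, at a median of 91.8, 91.3 and 91.4% of its length. Last exons held 60.7% of the canonical exon bases over 2.5 kb from start sites, as given above. The position of all such bases along their genes was not measured. For 33.7, 34.3 and 32.5% of exonic peaks the closest start site, by basic transcripts, was one of the host gene itself. The same share was not counted for intronic peaks.

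Gene groups tied to these cells and to TWEAK were counted among the hosts. A list in which a gene was not a host can still hold a peak at the same place. In the TGF-β pathway list, 4, 3 and 4 of 18 genes hosted an exonic peak, and 3 did so in all lists. Over all 19970 protein-coding genes, 437 (2.19%) were hosts in all 3 lists, counted by peak. SMAD3, a signal transducer of the pathway, had a member of 2.69 in MDA-MB-231 replicate 2. The Hs578T lists had peaks of 3.62 and 3.41 there that were not members. At a neighbouring stretch of the same last exon the Hs578T lists had members of 2.83 and 3.16, and MDA-MB-231 replicate 2 had no peak. TGFBR2, the type II receptor, had 2.85, 2.83 and 2.78 in its 3′ untranslated region.

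In the TWEAK and NF-κB list, 1, 3 and 1 of 20 genes were hosts. NFKB2, the precursor of p52 in the non-canonical pathway downstream of Fn14, was a host in each list, with a peak at exon 13 of 23 of fold enrichment 5.45, 3.71 and 3.20 and width 1046, 993 and 376 bp. The 3 values were at percentiles 48.5, 31.5 and 19.6. BIRC3 and IKBKB, an inhibitor of apoptosis and a kinase of the pathway, were hosts in Hs578T replicate 1 only, at 2.38 and 3.11. Of 14 AP-1 and small MAF genes FOSL2 alone was a host, in 2 lists, with 3.34 under the label MDA-MB-231 replicate 2, where it held 2, and 3.21 in Hs578T replicate 2. Hs578T replicate 1 had a peak of 8.58 there that was not a member. Of 18 Hippo pathway genes 3, 2 and 1 were hosts, and TEAD3 was the one shared by all lists. VGLL4, a cofactor of the TEAD proteins, had 3.6 and 2.67 in 2 lists, and the receptor tyrosine kinase AXL, also in this list, had 3.34 in MDA-MB-231 replicate 2. At AXL the Hs578T lists had peaks of 2.82 and 3.03 that were not members.

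The cytoskeleton list had 5, 5 and 7 hosts of 28 genes. VCL, the focal adhesion protein vinculin, had 8.32, 8.68 and 8.17 at its last exon, and MACF1, a linker of actin and microtubules, 5.46, 5.49 and 4.54 at exon 58 of 101. These were the members shared by all lists. FLNA, an actin cross-linker, was a host in 2 lists. Matrix glycoproteins had 3, 5 and 5 hosts of 24, none in all 3 lists, with HSPG2 (perlecan) at exon 38 of 97 a member in both Hs578T lists at 6.35 and 5.61. MDA-MB-231 replicate 2 had a peak of 8.94 there that was not a member. LAMA5, a laminin chain, had 3.06 at exon 76 of 80 in MDA-MB-231 replicate 2 and 2.79 at exon 12 in Hs578T replicate 1. Collagen chains had 2, 0 and 0 hosts of 20, namely COL11A1 at 6.54 and COL4A2 at 4.43. Both Hs578T lists had overlapping peaks that were not members, of 4.70 and 4.60 at COL11A1 and of 3.74 and 3.33 at COL4A2. Integrins had 1, 1 and 2 hosts of 16. These were ITGA3, at 3.41 and 3.12 in different exons of 2 lists, ITGB1 at 2.69 and ITGB5 at 2.56. Receptor tyrosine kinases had 3, 3 and 1 of 21. Of the last, EPHA2 held 2 exonic peaks in MDA-MB-231 replicate 2, and EPHB4, at its last exon, was a member in 2 lists with 9.60 and 8.05. Hs578T replicate 2 had a peak of 6.84 at EPHB4 that was not a member. Over all protein-coding genes 3.86, 4.41 and 4.48% were hosts, and 2.19% were hosts in all 3 lists, as given above. Per Mb of exon over 2.5 kb from start sites, the TGF-β list held 38.9, 29.2 and 48.6 exonic peaks, the cytoskeleton list 21.2, 21.2 and 33.9, and the matrix glycoproteins 19.6, 32.6 and 39.2, against 14.9, 17.0 and 17.3 for all protein-coding genes. The other lists had 36.3, 54.4 and 18.1 (TWEAK and NF-κB), 96.5, 0 and 48.3 (AP-1 and small MAF), 45.2, 30.1 and 15.1 (Hippo), 17.2, 0 and 0 (collagens), 11.2, 11.2 and 22.4 (integrins), and 36.2, 27.1 and 9.04 (receptor tyrosine kinases). With 0 to 8 peaks per gene list these values were not tested.

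Finally, the sequence under the peaks was searched. The AP-1 motif (TGACTCA or TGAGTCA, which are reverse complements, so 1 strand covers both) lay in the central 500 bp of 234 of 823 exonic peaks in MDA-MB-231 replicate 2 (28.4%, 25.5 to 31.6%). It lay in 250 of 939 in Hs578T replicate 1 (26.6%, 23.9 to 29.5%) and in 244 of 951 in Hs578T replicate 2 (25.7%, 23.0 to 28.5%). Intronic peaks held it in 33.3, 31.2 and 31.5% and intergenic peaks in 35.3, 34.9 and 34.2%, so exonic peaks were lower in 3 of 3 lists. Windows of the same length, centred on exons over 2.5 kb from start sites and free of any peak, held the motif in 6.61% of 131527 coding internal exons and 6.0% of 11998 last exons centred on 3′ untranslated bases.

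The motif was found in the coding bases as well as beside them. For members with the midpoint in the coding part of an internal exon the share of windows with the motif was 31.4, 28.7 and 27%, and for those in the 3′ untranslated part of a last exon 27.8, 26.1 and 25.3%. Counted by base within the central windows, there were 0.576, 0.542 and 0.540 motifs per kb of coding sequence, against 0.112 per kb of coding sequence outside peaks. All exonic bases had 0.598, 0.580 and 0.566 per kb, and the non-exonic bases of the same windows 0.810, 0.643 and 0.685 per kb. A median of 46.2 to 46.6% of the bases in these windows were G or C, against 43.6 to 44.0% in intronic peaks and 43.2% in the coding internal exons without a peak. The core TEAD motif, GGAATG or its reverse complement CATTCC, lay in 32.4, 31.5 and 31.0% of exonic peaks and in 33.4, 32.1 and 32.9% of intronic peaks. A match of letters does not show that a factor was bound.

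**Figure D5:**
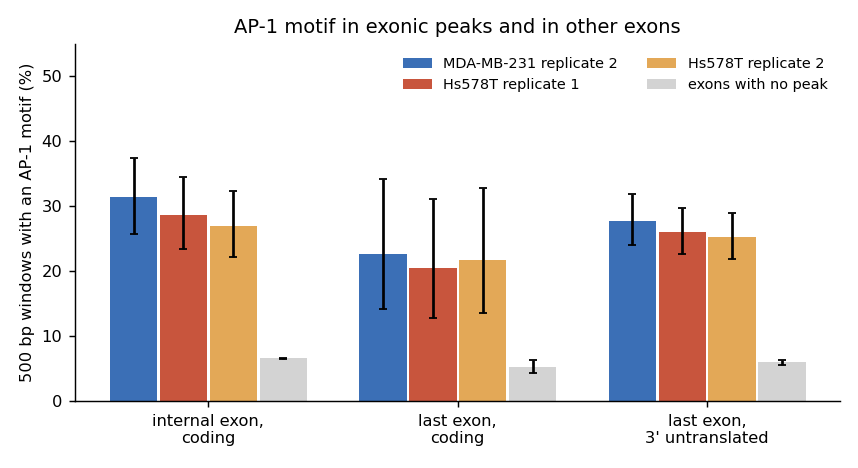
Percentage of 500 bp windows with at least 1 AP-1 motif (vertical axis) for exonic peaks by exon position and coding state, per list, and for exons free of peaks (grey), with 95% Wilson intervals as error bars. In the 3 categories drawn, exonic peaks range from 20.5 to 31.4% and exons without a peak from 5.28 to 6.61%.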

How the data were processed

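H3K27ac peak lists of 4 libraries were used. According to the study's methods, the authors trimmed reads with Trimmomatic, mapped them to hg38 with Bowtie2, called peaks per library with MACS2 after subtracting input, and removed blacklisted regions with bedtools. Versions and settings are not given in the sources used here. The deposited lists have the 9 columns of broad peak output, with a score, a fold enrichment ratio, and −log10 p-values and q-values averaged over each peak. In the 3 large deposited lists the largest q-value was 0.0972 to 0.0994.

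Peaks were placed on GENCODE release 44 (basic transcripts) with Python 3.11.15, numpy 2.4.6 and pandas 2.3.3. Host exons were taken from the canonical transcript first. Scripts were tested on made-up intervals. Members and gene lists were chosen with earlier results of these data known. Named genes were, among regions that were members in all 3 lists, the 10 hosts with most of them, the 5 strongest per exon class, the 5 widest and the 5 strongest within 1 exon. Added were up to 4 host genes per gene list, those with most regions, and the 5 strongest regions with a peak under 1 label only. ACTN4, MYH9 and LTBP1 were chosen after their values were seen. Sequences on chromosome 8 were not considered for printing. The values of 1 host gene are not reported here. No test was fitted, since peaks are not replicates. Values are given per list or as mean ± SD over 3 lists.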

Additional observations from a re-analysis of the deposited data

Results flagged for a closer look

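The list labelled MDA-MB-231 replicate 1, which the rule left out, held 5 exonic peaks away from start sites among its 209 peaks. In the 3 large lists such peaks made up 1.90, 2.03 and 2.12% of all peaks. The 5 peaks lay in NBPF10, BCAN, KLF15, ACACA and BRWD3, were 206 to 699 bp wide, and had fold enrichments of 3.67 to 5.58. Of these 5, 1 (20%) overlapped a peak of MDA-MB-231 replicate 2, as did 68 of all 209 peaks of the list (32.5%). NBPF10 has near-identical copies, so its peak is uncertain.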

How the results depend on the processing

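No paired analysis was possible because no result comes from a test and the rule takes a single list labelled MDA-MB-231. Each of 8 results was recomputed as a mean over lists, in 74 alternative values in all, of which 49 moved by less than the spread between lists (or, for the number of peaks, by less than 1.5 times) and 25 by more.

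With exons of every annotated transcript there were 1363 exonic peaks in place of 904, making 4.78% of distal peaks in place of 3.17%, and 56.9% in place of 69.4% lay in a last exon. Canonical exons alone gave 2.85% and 67.7%. A distance of over 1 kb gave 3.32% of distal peaks. A distance of over 5 kb gave 2.86%, 67.9% in last exons and an AP-1 motif in 28.5% in place of 26.9%. Requiring at least 50% exonic bases gave 2.33%, 90.7% in last exons and a motif in 25.3%, and by its construction it favours long exons. In the strongest 50% of each list, cut in all lists alike, 305 exonic peaks remained, or 2.62% of distal peaks, and 84.2% in place of 76.9% overlapped both other lists. That overlap was 57.4% when at least 50% of both peaks had to be shared and 49.0% when the counterpart had to be exonic itself. Searching the whole peak found the motif in 46.1%.

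Leaving out each list in turn gave 881 to 945 peaks, 3.10 to 3.24% of distal peaks, 68.8 to 69.9% in last exons, 82.2 to 83.9% shared (with 1 other list to overlap instead of 2) and a motif in 26.1 to 27.5%. Without reads, depth could not be taken into account, and the weakest peaks limit every count.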
